A study of Mus musculus with 6 samples.

Results

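The transcripts described here are 9 genes that serve as markers of myelin-forming oligodendrocytes (Mbp, Mog, Mobp and Mag) and of astrocytes (Gfap, Aqp4, Slc1a2, Aldoc and Glul), read in RNA from microglia sorted from brain. They were taken by gene symbol from a deposited table of 20129 genes, and all 9 were found there. The table held 6 RNA-seq libraries of live (7AAD-negative) CD45+ CD11b+ brain cells from mice aged 5 months. In one group (5xFAD, replicates 4, 5 and 6) the mice carried the 5xFAD transgenes, which are mutant human amyloid precursor protein and presenilin genes driven by the neuronal Thy1 promoter and lead to amyloid plaques. In the other (Il3-/-5xFAD, replicates 1, 2 and 3) they carried the same transgenes and lacked interleukin-3, a haematopoietic cytokine. All were on the C57BL6/J strain, each library pooled 2 male and 2 female mice, and both groups carried the transgenes, so the comparison is between amyloid-bearing mice with and without Il3.

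Myelin is a stack of membrane wrapped around axons by oligodendrocytes. Myelin basic protein and the myelin-associated oligodendrocytic basic protein hold its cytoplasmic faces together, while the glycoproteins encoded by Mag and Mog sit on the innermost and outermost membranes. Astrocytes take up glutamate released at synapses, convert it to glutamine, and wrap blood vessels with endfeet rich in water channels; around plaques they become reactive and make more of the intermediate filament protein GFAP. Cells of neither type carry CD45 or CD11b, the surface markers of the sort, so these transcripts are also a reading of what else the sorted libraries hold; which cells they came from was not tested.

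The unit throughout is CPM, a gene's reads per 1000000 of all reads in the library, and values of single libraries are listed in replicate order (4, 5 and 6 for 5xFAD, then 1, 2 and 3 for Il3-/-5xFAD). The libraries held 27970850 to 37605490 reads, so that 1 read was worth 0.0266 to 0.0358 CPM. Reads of Il3 numbered 54, 61 and 29 in the 5xFAD libraries and no read in any Il3-/-5xFAD library, where 0 reads allow up to 0.0909 to 0.107 CPM, so the targeted gene went with the labels. The 9 microglial markers of a fixed list summed to 32652 to 34113 CPM in 5xFAD and 33238 to 36534 CPM in Il3-/-5xFAD. In Il3-/-5xFAD replicate 3 fewer genes had a read (14435) than in the other libraries (15740 to 17245), and results that rest on low counts are given with that in view. Limits and floors cover counting error only, and a lower level in bulk RNA cannot be told apart into fewer cells of a type and less RNA per cell.

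Mean CPM in 5xFAD was 2.85-fold that in Il3-/-5xFAD for Gfap, the filament gene of reactive astrocytes, 2.63-fold for the glutamate transporter gene Slc1a2, 1.98-fold for Mobp and 1.35-fold for Mbp. Mag was level, and Glul had 1.23-fold more in Il3-/-5xFAD. None of the 9 passed the test of the whole table. Of the 9, Mog and Aqp4 lay below the filter (at least 1 CPM in at least 3 libraries), and the other 7 had at least 1 CPM in all 6 libraries. The test was limma on log2(CPM + 1) over 11900 genes, with Benjamini-Hochberg adjustment over all of them and a threshold of 0.05. It called 0 of the 7, against 0.882% of all tested genes. At an unadjusted p under 0.05, 4 of the 7 were lower (Mbp, Mobp, Gfap and Slc1a2), against 9.83% of tested genes. In 3 of the 7 (Mobp, Gfap and Slc1a2) every Il3-/-5xFAD library lay below every 5xFAD library, against 11.5% of tested genes. The 7 log2 differences had a median of -0.52, beside -0.00059 over all tested genes. With reads recovered from the CPM values, edgeR's quasi-likelihood test on the same 11900 genes passed 0 of the 7 and 0.504% of all. The same test without a filter, the only one here for Mog and Aqp4, passed 4 of the 9 (Mbp, Mobp, Gfap and Slc1a2) and 4.04% of 20129 genes. DESeq2 called 2, Mbp and Slc1a2, against 5.09% of the genes it tested. With 3 pools per group, the p-values measure only the spread between these pools.

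**Figure D1:**
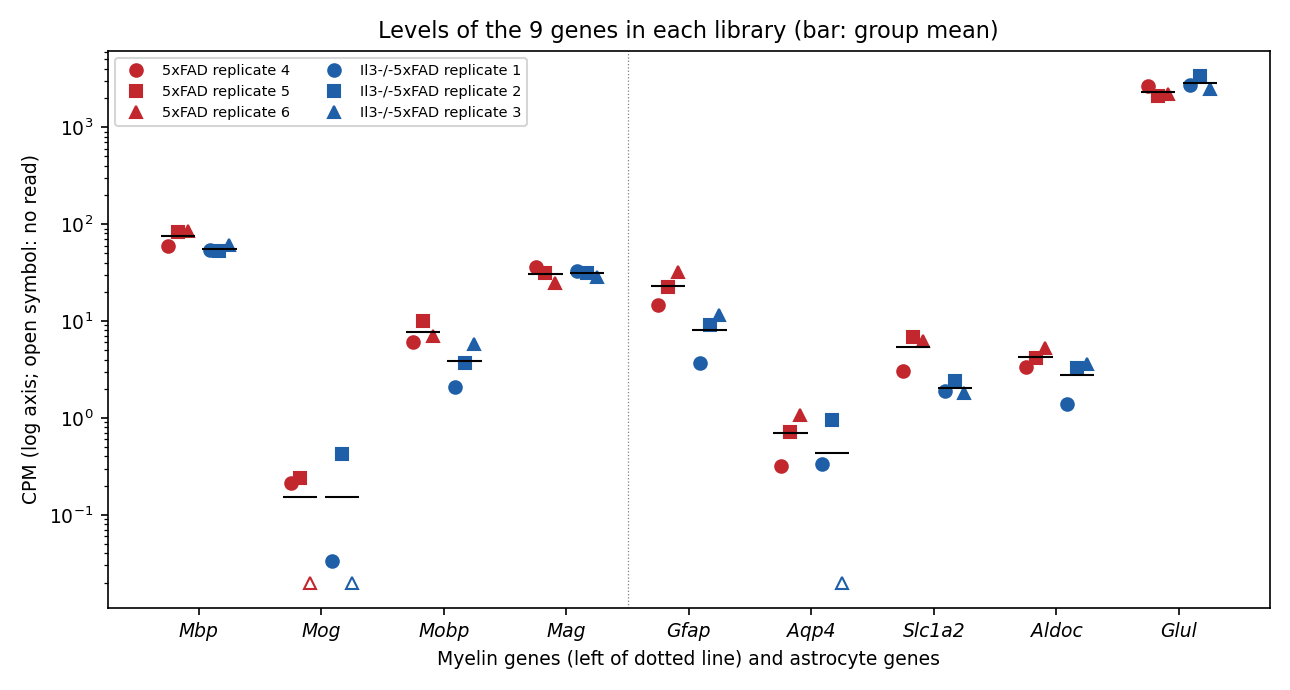
CPM on a log axis for each of the 9 genes in the 3 5xFAD libraries (red) and the 3 Il3-/-5xFAD libraries (blue), with group means as bars and libraries without a read drawn as open symbols at the foot. Gfap, Slc1a2 and Mobp separate by genotype, Mag and Glul overlap, and Mog and Aqp4 lie near or below 1 CPM.

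Among the myelin genes, Mbp was the most abundant in reads. Its protein, myelin basic protein, compacts the myelin sheath; the same locus also makes longer golli transcripts, which cells of the immune system are known to express, and a value per gene does not separate them. Mbp was at 59.7, 82.7 and 84.1 CPM in the 5xFAD libraries against 54.2, 52.7 and 61.0 CPM in those without Il3. The groups overlapped by 1 library on each side, since 5xFAD replicate 4 lay below Il3-/-5xFAD replicate 3. The means were 75.5 ± 13.7 and 56.0 ± 4.41 CPM (SD, n = 3), and the log2 difference was -0.41 ± 0.13 (SE), with a limma adjusted p = 0.133. Without 5xFAD replicate 4, when 3 of the 7 genes and 1.91% of all tested genes passed, the difference was -0.57 (limma adjusted p = 0.0268), and over all alternatives the adjusted p ran from 0.00978 to 0.482.

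Mobp, which encodes a small basic protein of compact myelin, showed the larger relative difference of these genes. It was at 6.08, 9.98 and 6.99 CPM in the 5xFAD libraries against 2.08, 3.69 and 5.85 CPM in those without Il3. The groups did not overlap, but the gap between the lowest 5xFAD and the highest Il3-/-5xFAD library was narrow. The means were 7.68 ± 2.04 and 3.88 ± 1.89 CPM (SD, n = 3), and the log2 difference was -0.88 ± 0.29 (SE), with a limma adjusted p = 0.153. Without Il3-/-5xFAD replicate 3, the library with the fewest genes detected, 2 of the 7 genes and 5.08% of all tested genes passed, and the difference of Mobp was -1.17 (limma adjusted p = 0.0423). It was smaller without Il3-/-5xFAD replicate 1 (-0.59, limma adjusted p = 0.423) or 5xFAD replicate 5 (-0.70, limma adjusted p = 0.432), and -0.52 with 5 in place of 1 added to CPM (limma adjusted p = 0.144).

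Mag did not follow Mbp and Mobp. It encodes myelin-associated glycoprotein, a sialic acid-binding lectin of the Siglec family that lies on the myelin membrane next to the axon. It was at 36.5, 31.2 and 24.4 CPM in 5xFAD and 32.9, 31.4 and 28.7 CPM in Il3-/-5xFAD. The 3 Il3-/-5xFAD libraries all lay inside the range of the 5xFAD libraries. The log2 difference was 0.03 with a 95% interval from -0.28 to 0.35 (limma adjusted p = 0.943), and its sign turned without 5xFAD replicate 6 (-0.12) or Il3-/-5xFAD replicate 1 (-0.012).

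Mog, the gene of myelin oligodendrocyte glycoprotein on the outer surface of the sheath, was near the limit of detection. Its reads numbered 6, 7 and 0 with Il3 and 1, 12 and 0 without, which makes 13 reads per group. The count of 0 allows up to 0.0798 CPM in 5xFAD replicate 6 and 0.0909 CPM in Il3-/-5xFAD replicate 3. By edgeR's quasi-likelihood test without a filter, the log2 difference was 0.053 (adjusted p = 1.00), and at 13 reads per group a difference was not detectable.

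The stretches upstream of Mobp, Mag and Gfap are shown because Mobp and Gfap separated by genotype in these libraries and Mag did not. Each is the 250 bases before the start of transcription in the RefSeq table of build GRCm38.p6, another build than the mm9 named for the deposited files; such windows were found for 7 of the 9 genes, and for Mag the first of 3 listed starts is given. Capitals mark matches to ACAAAG, a form of the core element bound by SOX-family factors such as the oligodendrocyte regulator SOX10 (or CTTTGT, the same letters on the other strand), and to TTCNNNGAA, the palindromic element of STAT factors, through which IL-3 receptors signal.
Mobp, chr9:120149492-120149741, plus strand: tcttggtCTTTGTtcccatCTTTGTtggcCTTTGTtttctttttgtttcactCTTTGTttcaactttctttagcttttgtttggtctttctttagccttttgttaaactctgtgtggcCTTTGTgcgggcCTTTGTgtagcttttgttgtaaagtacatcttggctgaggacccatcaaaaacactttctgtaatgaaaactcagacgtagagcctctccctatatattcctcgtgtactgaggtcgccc
Mag, chr7:30914864-30915113, minus strand: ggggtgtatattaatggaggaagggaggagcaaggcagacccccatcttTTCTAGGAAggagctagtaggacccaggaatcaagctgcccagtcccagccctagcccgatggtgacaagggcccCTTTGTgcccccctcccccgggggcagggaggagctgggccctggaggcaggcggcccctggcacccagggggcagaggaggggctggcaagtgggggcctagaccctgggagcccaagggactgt
Gfap, chr11:102897201-102897450, minus strand: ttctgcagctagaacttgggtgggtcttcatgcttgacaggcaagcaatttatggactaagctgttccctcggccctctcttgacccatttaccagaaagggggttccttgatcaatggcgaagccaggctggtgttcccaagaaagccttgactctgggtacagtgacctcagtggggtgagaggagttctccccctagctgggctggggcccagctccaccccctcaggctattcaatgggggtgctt
The Mobp window held 6 matches to ACAAAG, all as CTTTGT and none overlapping. Of 32851 such windows in the table, 16.5% held at least 1 match and 1 window, that of Mobp itself, held 6. The Mag window held 1 match to ACAAAG and 1 to TTCNNNGAA, which 7.02% of all windows hold. The Gfap window held neither, which says only that these letters are not in this stretch. The matches are a description of sequence, and no binding was measured.

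Of the astrocyte genes, Gfap differed most. It encodes glial fibrillary acidic protein, the intermediate filament that reactive astrocytes make in larger amounts. Gfap was at 14.6, 22.6 and 32.0 CPM in the 5xFAD libraries against 3.73, 9.13 and 11.4 CPM in those without Il3. All 3 Il3-/-5xFAD libraries lay below all 5xFAD libraries, while the spread inside each group was wide (coefficients of variation of 37.7% and 48.7%). The means were 23.1 ± 8.69 and 8.08 ± 3.94 CPM (SD, n = 3), and the log2 difference was -1.45 ± 0.34 (SE; 95% interval -2.19 to -0.71), which missed the threshold (limma adjusted p = 0.066). It passed without 5xFAD replicate 4 (-1.73, limma adjusted p = 0.0335) and without Il3-/-5xFAD replicate 3 (-1.73, limma adjusted p = 0.0309), and was farthest from passing without 5xFAD replicate 6 (-1.19, limma adjusted p = 0.331).

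Slc1a2 encodes GLT-1, the transporter that clears most synaptic glutamate in the forebrain. It was at 3.07, 6.87 and 6.14 CPM in the 5xFAD libraries against 1.91, 2.38 and 1.82 CPM in those without Il3. The groups did not overlap, and the Il3-/-5xFAD libraries lay close together. The means were 5.36 ± 2.01 and 2.04 ± 0.300 CPM (SD, n = 3). The log2 difference was -1.01 ± 0.28 (SE; limma adjusted p = 0.0939) on the log2(CPM + 1) scale, where the added 1 shrinks the change of a gene as low as this; DESeq2 on reads gave -1.39 (adjusted p = 0.0128). Without 5xFAD replicate 4 it passed in limma as well (-1.31, adjusted p = 0.0306), while it was farther from passing without 5xFAD replicate 5 (-0.83, limma adjusted p = 0.323) or 6 (-0.90, limma adjusted p = 0.391). With 5 in place of 1 added to CPM the difference was -0.54 (limma adjusted p = 0.0921).

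Aldoc, the brain form of the glycolytic enzyme aldolase, was at 3.32, 4.14 and 5.24 CPM in 5xFAD and 1.38, 3.27 and 3.61 CPM in Il3-/-5xFAD. The groups overlapped, with Il3-/-5xFAD replicate 1 far below the rest. The log2 difference was -0.52 ± 0.29 (SE; limma adjusted p = 0.404), and it was -0.22 without Il3-/-5xFAD replicate 1 and -0.26 with 5 added to CPM. Aqp4, the water channel of astrocyte endfeet, had read counts of 9, 21 and 40 in 5xFAD against 10, 27 and 0 in Il3-/-5xFAD. The groups overlapped, and the 0 in Il3-/-5xFAD replicate 3 allows up to 0.0909 CPM. EdgeR's quasi-likelihood test without a filter gave a log2 difference of -0.68 (adjusted p = 0.839).

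Glul stood apart from the other 4 astrocyte genes in both level and direction. It encodes glutamine synthetase, which turns glutamate and ammonia into glutamine and is known from astrocytes and also from macrophages. Glul was at 2657, 2109 and 2223 CPM in 5xFAD against 2722, 3369 and 2476 CPM in Il3-/-5xFAD. The groups overlapped, with Il3-/-5xFAD replicate 2 the highest of all and 5xFAD replicate 4 above Il3-/-5xFAD replicate 3. The log2 difference was 0.29 ± 0.14 (SE; 95% interval -0.0065 to 0.58; limma adjusted p = 0.315), and 0.16 without Il3-/-5xFAD replicate 2. Of the 50-base stretches of its longest GENCODE transcript, 14.2% also occur in transcripts of other genes, most in the pseudogene Glns-ps1 (11.3%), which was itself at 0.889 to 3.68 CPM, so a small part of the value may be shared. For the other 8 genes at most 0.611% of such stretches were shared.

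**Figure D2:**
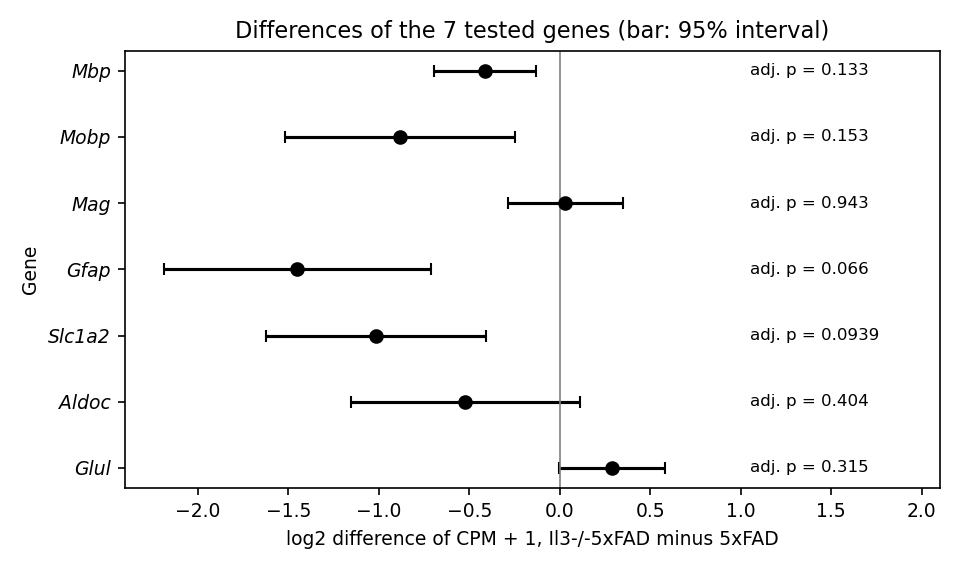
Log2 difference of CPM + 1 (Il3-/-5xFAD minus 5xFAD) for the 7 tested genes, with 95% intervals and limma adjusted p. The intervals of Mbp, Mobp, Gfap and Slc1a2 lie below 0, those of Mag, Aldoc and Glul include it, and no adjusted p is under 0.05.

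Levels of different genes were compared per length, as CPM divided by the kilobases of the longest GENCODE transcript. In 5xFAD the order was Glul (755 to 952 CPM per kilobase), Mbp (12.4 to 17.5), Mag (10.0 to 15.0), Gfap (5.52 to 12.1), Mobp (1.85 to 3.04), Aldoc (1.19 to 1.88), Slc1a2 (0.265 to 0.592), Aqp4 (0.0637 to 0.210) and Mog (0 to 0.140). Neighbours whose ranges overlapped there were Mbp and Mag, Mag and Gfap, Mobp and Aldoc, and Aqp4 and Mog. In Il3-/-5xFAD, Mag (11.8 to 13.5) and Mbp (11.0 to 12.7) changed places with overlapping ranges, and Gfap (1.41 to 4.30) now overlapped Mobp (0.634 to 1.78), which overlapped Aldoc in both groups. Slc1a2 (0.157 to 0.205) overlapped Mog (0 to 0.25) there. Mag was thus at the level of Mbp per length while Mog, which oligodendrocytes make alongside both, was close to 0 in the same libraries.

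**Figure D3:**
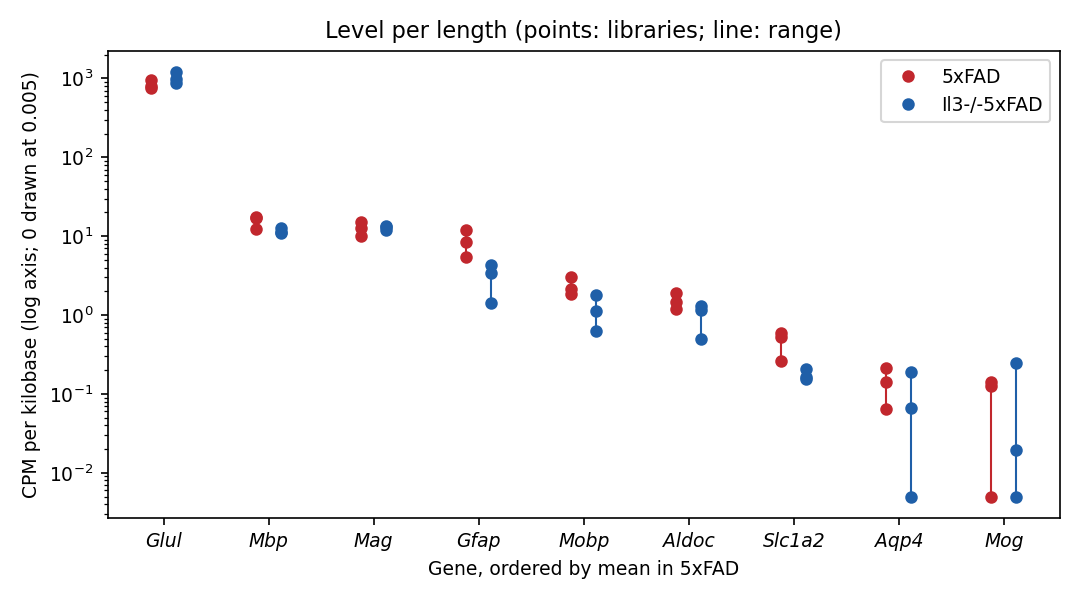
CPM per kilobase of longest transcript on a log axis, ordered by the mean in 5xFAD, with each library as a point and the range of a group as a line. Glul lies far above the rest, Mbp and Mag are level, and Mog and Aqp4 lie at or below 0.25 in every library.

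The label of oligodendrocyte RNA was checked on a list of 39 other genes of that cell type. Of these, 26 had a mean under 1 CPM and 25 had no read in at least 1 library. The 5 transcription factor genes of the list were low: Sox10 was at 0 to 0.444 CPM, Olig2 at 0 to 0.178, Nkx6-2 at 0 to 0.215, Myrf (under its older symbol Gm98) at 0 to 0.547, and Olig1, which had reads in all 6 libraries, at 0.142 to 1.00 CPM. The myelin genes Cldn11 (0 to 0.894 CPM) and Opalin (0 to 0.212 CPM) were low too; Cldn11, Opalin and the transcription factor genes were singled out after their values were seen. The most abundant of the list, Trf (transferrin; 396 ± 8.94 CPM in 5xFAD and 352 ± 46.7 in Il3-/-5xFAD; SD, n = 3), Evi2a (227 ± 7.71 and 261 ± 15.0) and Cnp (the myelin enzyme CNPase; 76.4 ± 4.40 and 72.5 ± 4.15), were far above these. Mag (24.4 to 36.5 CPM) and Mbp (52.7 to 84.1 CPM) were thus high beside Mog, these transcription factor genes, Cldn11 and Opalin, and the label of oligodendrocyte RNA is not borne out for them by these markers.

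No tested gene of that list passed. Of the 39, 14 were tested, of which 0 rose and 0 fell in limma, edgeR with the filter or DESeq2, and 4 were lower and 1 higher at an unadjusted p under 0.05 (limma). Over all tested genes, 9.83% were lower at that threshold, and the share higher is not given here. Trf, Evi2a and Cnp had log2 differences of -0.18, 0.20 and -0.07 (limma adjusted p of 0.380, 0.219 and 0.729). The median of the 14 was -0.35, but 7 of them were under 1 CPM in at least 1 Il3-/-5xFAD library, and the 7 with at least 1 CPM in all 6 libraries had a median of -0.18. In Il3-/-5xFAD replicate 3, 21 of the 39 had no read, against 5 to 14 in the other 5 libraries. Of 8 genes of oligodendrocyte precursors, 1 was tested. That was Cspg4, the gene of the NG2 proteoglycan, which pericytes express too, at 13.5 ± 7.06 and 3.22 ± 1.08 CPM (SD, n = 3; log2 difference -1.65 ± 0.38, limma adjusted p = 0.0611), which DESeq2 called and edgeR with the filter did not. Pdgfra, the defining marker of precursors, was at 0 to 0.547 CPM, and Vcan at 0.675 to 1.98 CPM.

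The astrocyte label was checked in the same way on 35 other genes. Of these, 19 had a mean under 1 CPM and 12 had no read in at least 1 library. The astrocyte connexin genes Gja1 (0 to 0.437 CPM) and Gjb6 (0 to 0.394 CPM), singled out after their values were seen, were at or near 0. The most abundant were Slc1a3, the glutamate transporter GLAST (124 ± 11.2 and 126 ± 7.58 CPM; SD, n = 3), the potassium channel gene Kcnj10 (24.3 ± 0.347 and 15.9 ± 2.60) and Pla2g7, a secreted phospholipase (12.7 ± 1.29 and 7.99 ± 2.38). Of 16 tested genes 0 rose and 0 fell in limma or edgeR with the filter, DESeq2 called 2 (Kcnj10 and Mt3), and 8 were lower and 0 higher at an unadjusted p under 0.05 in limma. Over all tested genes, 9.83% were lower at that threshold, and DESeq2 called 5.09% of those it tested. Limma called 0.882% and edgeR with the filter 0.504%. Of the 8 lower genes, Mt3 and Slco1c1 were under 1 CPM in every Il3-/-5xFAD library. These passed the filter only through the 5xFAD libraries, where they were high. Of the 16, 5 were under 1 CPM in at least 1 Il3-/-5xFAD library. Kcnj10 and Pla2g7 had log2 differences of -0.60 and -0.64 (limma adjusted p of 0.0728 and 0.157), and Slc1a3 of 0.03 (limma adjusted p = 0.903). The median was -0.58 over the 16 and -0.50 over the 11 that had at least 1 CPM in all 6 libraries.

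**Figure D4:**
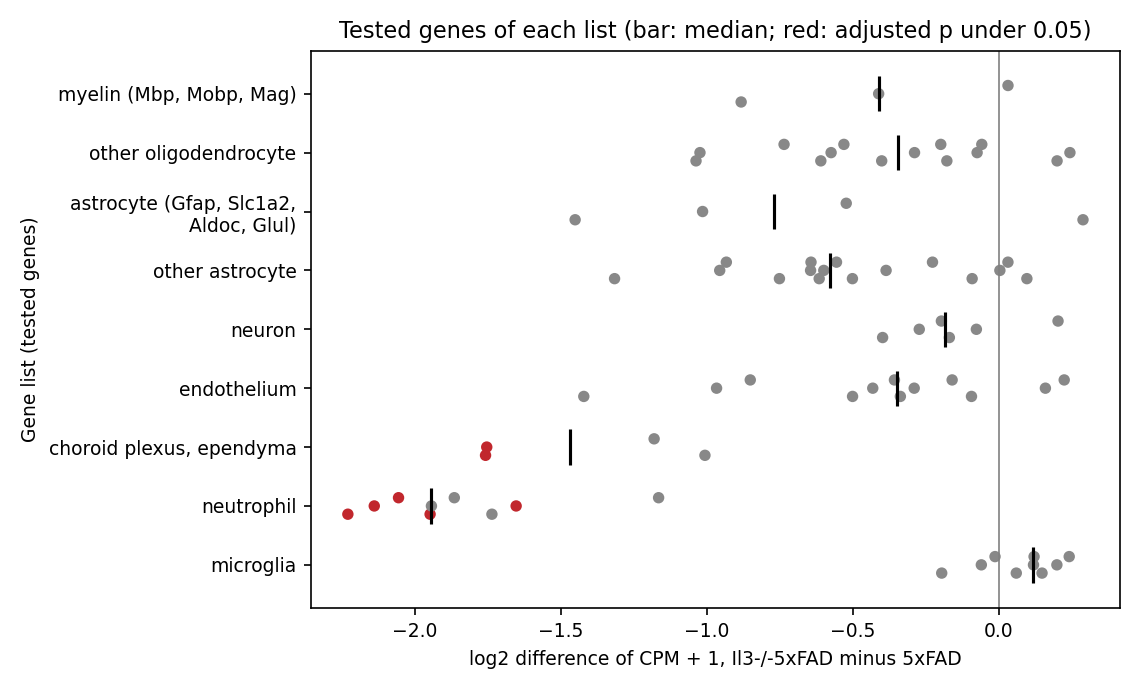
Log2 differences (Il3-/-5xFAD minus 5xFAD) of the tested genes of each list, with the list median as a bar and genes with a limma adjusted p under 0.05 in red. Only choroid plexus and neutrophil genes are red among the lists drawn. The median of the microglial markers lies above 0 and those of all other lists drawn, the astrocyte lists among them, lie below it. Single astrocyte genes such as Glul lie above 0.

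Genes tied to the astrocyte members by function were read next. Of 6 further genes of glutamate and glutamine transport and use, 3 were tested and 0 passed in limma, edgeR with the filter or DESeq2, with 1 lower and 1 higher at an unadjusted p under 0.05. Slc38a2 and Slc38a1, which encode glutamine transporters, had log2 differences of 0.25 and -0.23 (limma adjusted p of 0.298 and 0.164). Of 4 genes of the protein complex that anchors AQP4 at endfeet, 3 were tested and 0 passed in limma, edgeR with the filter or DESeq2, nor in limma at an unadjusted p under 0.05. Dag1 (dystroglycan) and Sgcb (a sarcoglycan) were at 56.4 and 40.9 CPM in 5xFAD and 53.2 and 36.2 CPM in Il3-/-5xFAD, while Aqp4 itself was at most 1.06 CPM in any library. Of 11 genes linked to reactive astrocytes, 6 were tested and 0 passed in limma or edgeR with the filter, DESeq2 called 2 (Cd44 and Vim), and 3 were lower at an unadjusted p under 0.05 in limma. Over all tested genes, 9.83% were lower at that threshold, and DESeq2 called 5.09% of those it tested. Lcn2, which neutrophils also make in large amounts, was at 119 ± 57.9 and 32.3 ± 20.3 CPM (SD, n = 3; limma adjusted p = 0.0799), and Ggta1 and the metallothionein gene Mt1 had log2 differences of 0.19 and 0.08.

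Markers of other cell types were read beside these genes, and only some of them differed by genotype. The 9 neutrophil genes summed to 1166 to 3095 CPM in 5xFAD and 204 to 786 CPM in Il3-/-5xFAD, and 5 of the 9 passed (S100a8, S100a9, Camp, Mmp9 and Retnlg, all lower), against 0.882% of all tested genes. Within 5xFAD this sum was highest in replicate 5, as were Mobp and Slc1a2, whereas Gfap and Mbp were highest in replicate 6. The 6 genes of choroid plexus and ependyma summed to 183 to 516 CPM in 5xFAD, highest in replicate 6, and to 63.2 to 131 CPM in Il3-/-5xFAD, and Ttr and Enpp2 passed, both lower; Kl differed by -1.18 (limma adjusted p = 0.0934). The 16 neuronal genes summed to 17.5 to 22.3 and 15.3 to 25.9 CPM, and 0 of the 6 tested passed in limma, edgeR with the filter or DESeq2, nor in limma at an unadjusted p under 0.05. Camk2a, Meg3 and Snap25 were the most abundant, with log2 differences of -0.08, -0.27 and -0.40. Of these 6, 5 were under 1 CPM in at least 1 Il3-/-5xFAD library, which limits what the test can show. The highest sum was in Il3-/-5xFAD replicate 3, where Meg3 was at 9.12 and Snhg11 at 4.30 CPM. Of 12 tested endothelial genes 0 passed in limma or edgeR with the filter, DESeq2 called 1 (Flt1), and 4 were lower at an unadjusted p under 0.05 in limma, against 9.83% of all tested genes. Of these 4, Slco1a4 passed the filter only through the 5xFAD libraries, and Abcb1a had no read in Il3-/-5xFAD replicate 3. Of the 12, 5 were under 1 CPM in at least 1 Il3-/-5xFAD library. Slc2a1, Pecam1 and Flt1 were at -0.34, 0.22 and -1.42 (limma adjusted p of 0.120, 0.343 and 0.051). Of 5 tested mural genes Tagln rose (0.626 ± 0.0604 to 3.70 ± 1.67 CPM, limma adjusted p = 0.0457), while the most abundant besides it, Rgs5 and Vtn, had log2 differences of -0.15 and -0.93 (limma adjusted p of 0.889 and 0.143). The other 2, Acta2 and Kcnj8, were at 1.24 and -0.82 (limma adjusted p of 0.0734 and 0.205). Tagln was under 1 CPM in every 5xFAD library, so it passed the filter only through the group where it was high. Of the 5 mural genes, 0 had at least 1 CPM in all 6 libraries. The groups did not overlap for Tagln and Acta2, higher without Il3, nor for Vtn and Kcnj8, lower without it. Over all tested genes, 11.5% did not overlap and were lower, and the share that did not overlap and were higher is not given here. Of these 8 limma calls edgeR with the filter made 0 with TMM scaling and 2 (Ttr and Tagln) with library totals. DESeq2, which called 5.09% of all genes it tested, called the same 5 neutrophil genes, Ttr and Tagln, but not Enpp2. It also called Kl and Acta2. Each of the 8 limma calls was lost when 5xFAD replicate 6 was left out (limma adjusted p of 0.167 to 0.269). Those of the 5 neutrophil genes were also lost without 5xFAD replicate 5. The part of these cell types in the levels of the myelin and astrocyte genes was not tested.

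For each of the 7 tested genes, the genes of most similar pattern were sought among 9803 others with a mean of at least 5 CPM, by the root mean square difference of centred log2(CPM + 1) values over the 6 libraries. Gfap was nearest to Apoe (0.129, against a spread of Gfap itself of 0.896), then to Cox6a2 and Fabp5 (0.243 and 0.269). Apoe was at 4929, 7500 and 8880 CPM in 5xFAD and 1724, 3097 and 3743 CPM in Il3-/-5xFAD, in the same order of libraries within each group as Gfap. Slc1a2 was nearest to Sh3pxd2b, C4b and Inf2 (0.130 to 0.142, against 0.593). Mobp was nearest to Cpe, Ildr2 and Tspo (0.168 to 0.213, against 0.584), of which Cpe is on the astrocyte list. Mbp was nearest to Sept9, Sorl1 and 1810035L17Rik (0.0542 to 0.0614, against 0.268), and Aldoc to Rai14, Ndufa1 and St14 (0.112 to 0.120, against 0.427). Mag, with little spread of its own (0.173), was nearest to Socs1, Fam120b and Tram2 (0.0444 to 0.0546). Glul was nearest to H3f3b, Nfkbia and Plk3 (0.0248 to 0.0592, against 0.219), and both Glul and H3f3b (2476, 2070 and 2098, then 2624, 3224 and 2329 CPM) were highest in Il3-/-5xFAD replicate 2. These likenesses describe 6 libraries in 2 genotypes and carry no test.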

How the data were processed

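RNA was sequenced from 6 pools of sorted brain cells, and per the labels' protocols the kit selected polyA RNA and kept strand. The authors deposited CPM values (counts per 1000000) of 20129 genes; STAR, HTSeq, edgeR and mm9 appear in the submitters' processing notes, while annotation, counting mode and use of strand are not stated. All values (100%, tolerance 0.01 reads) were whole multiples of 1 read, so read counts were recovered from the deposited CPM. Without a stated strand, reads of genes on opposite strands may mix: by GENCODE M21, 3.49% of the exonic bases of Glul and 1.44% of those of Slc1a2 lie over exons on the other strand.

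Groups and replicate numbers came from sample titles. Within a group, every pair of libraries differed by more than sampling noise (chi-square per degree of freedom at least 23.4). Log2(CPM + 1) was tested with limma 3.58.1 (mean-variance trend, two-sided) in R 4.3.3; alternatives used edgeR 4.0.16 and DESeq2 1.42.0 on recovered reads, other pseudocounts, filters, scaling and variance settings, and leaving out each library. On simulated reads for this comparison (11774 genes, 200 changed), limma recovered 84% of 2-fold and 97% of 4-fold changes, with 14 of 195 calls false. The simulation gave all genes the same fixed dispersion, which was not fitted to these libraries. Gfap, with coefficients of variation of 37.7% and 48.7%, varied more than that. These shares therefore do not give the power to call a change in the 9 genes. From each gene list up to 6 called genes were named by size or, where fewer than 3 were called, the 3 most abundant; all 9 members and the 3 closest patterns of each tested one were named. Values of 3 list genes are not reported here. Members and lists were chosen with earlier results of these data known. Figures were drawn with matplotlib 3.10.9.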

Additional observations from a re-analysis of the deposited data

How the results depend on the processing

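No paired analysis was possible because the genotypes share no replicate number. The tested genes other than Mag kept the sign of their difference under every alternative that tested them, and Aldoc, Mag and Glul passed under none. Mag, from -0.12 to 0.16 with 1 library left out, was at -0.12 without 5xFAD replicate 6 and at -0.012 without Il3-/-5xFAD replicate 1, and Mog was at -0.010 by limma without a filter against 0.053 by edgeR without a filter. The number of the 9 genes called was 4 by edgeR with no filter (Gfap, Mbp, Mobp and Slc1a2; 4.04% of all 20129 genes called) and 2 by DESeq2, and 0 to 3 with 1 library left out: 3 without 5xFAD replicate 4 (1.91% of all genes called) and 2, Gfap and Mobp, without Il3-/-5xFAD replicate 3 (5.08%). Of the other astrocyte genes, edgeR with no filter called 3 (Clu, Kcnj10 and Mt3), DESeq2 called 2 (Kcnj10 and Mt3), and leaving out 1 library gave 0 to 1 (Mt3, without Il3-/-5xFAD replicate 3). Of the other oligodendrocyte genes, leaving out 1 library gave 0 to 1 (Qdpr, without Il3-/-5xFAD replicate 3). Over the whole table, 105 genes were called, and 8 with no filter in limma, 68 when a mean of 5 CPM or more was required, 65 with median-ratio rescaling, 10 without the variance trend, 60 by edgeR with TMM, 69 by edgeR with library totals, 813 by edgeR with TMM and no filter, 605 by DESeq2, and 15 (without 5xFAD replicate 6) to 605 (without Il3-/-5xFAD replicate 3) with 1 library left out; the other such counts were 227 and 38 without 5xFAD replicates 4 and 5, and 139 and 59 without Il3-/-5xFAD replicates 1 and 2. The cause of these shifts was not tested. With 13 reads of Mog per group, and 70 and 37 of Aqp4, depth limits what can be seen of both.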
